A study of Mus musculus with 24 samples.

Results

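Chemokines and cytokines are the signals through which B cells recruit, instruct and organise other cells, and 10 of the genes encoding them were followed across naive and stimulated mouse B cells lacking PU.1, SpiB or both. The set held the chemokines Ccl22, Ccl17, Ccl3, Ccl4 and Cxcl10, the interleukins Il6 and Il10, and the TNF family ligands Tnf, Lta and Ltb. Each was found by its symbol among the 27179 genes of the count tables. On GRCm38.p6, Ccl22 (chr8:94745684-94751388) and Ccl17 share chromosome 8, Ccl3 and Ccl4 chromosome 11, Cxcl10 and Il6 chromosome 5, and Tnf, Lta and Ltb chromosome 17, while Il10 lies on chromosome 1. The members were chosen by known function together with values of these data, the fall of Ccl22 in PU.1 SpiB DKO cells stimulated with LPS + IL-4 being the reason for including it. The contrast of those cells with control is therefore given as a description, with no test, for all 10 genes. Tests of those cells against the single mutants share the double mutant libraries with that contrast, and so are not independent of the choice.

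The data comprised 24 RNA-seq libraries of lymph node B cells from C57BL/6 mice, as pairs covering 4 genotypes in 3 stages. Control mice (Cd23T/+) carried a transgene in which the Cd23 promoter drives Cre, with Spi1 and Spib intact. In PU.1 cKO mice (Spi1fl/fl Cd23T/+) the same Cre removed an exon of Spi1, the gene of PU.1, once Cd23 was expressed. SpiB KO mice combined Spib-/- with Spi1fl/fl but had no Cre (Cd23+/+), so that they kept PU.1. They were the only genotype without the transgene. PU.1 SpiB DKO mice had Spi1fl/fl, Cd23T/+ and Spib-/- together. The study reports less CD23 on the cell surface without SpiB. It describes part of the floxed exon as retained in naive PU.1 SpiB DKO cells. For this retention it proposes either lower expression of Cre or a need of follicular B cells for some PU.1 or SpiB to survive. Neither explanation was tested here. Naive cells stood beside cells taken after 48 h in culture, where the stimulus was CD40L + IL-4 in one set and LPS + IL-4 in the other, and the labels give no age of the mice.

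The chemokine CCL22 and its close relative CCL17 attract T cells through the receptor CCR4, while CXCL10 acts through CXCR3, and CCL3 and CCL4 are inflammatory chemokines. IL-6 and IL-10 are secreted interleukins, the former largely proinflammatory and the latter largely restraining. TNF, lymphotoxin-alpha (Lta) and lymphotoxin-beta (Ltb) are ligands of the TNF family, and lymphotoxin made by B cells is known for its part in organising lymphoid tissue. CD40 ligation and LPS both act through NF-kB, and IL-4 acts through STAT6. PU.1 and SpiB are closely related ETS family transcription factors that recognise similar DNA sequences.

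Library totals were 14231188 to 18194629 counts in naive cells, 9598674 to 61640683 after CD40L + IL-4 and 22757630 to 73658850 after LPS + IL-4. Levels are given as CPM, counts scaled to a common library size with TMM factors. Spib fell from 1413 CPM in naive control cells to 82.9 CPM in cells of SpiB KO mice and 99.6 in PU.1 SpiB DKO cells, and Spi1 from 164 CPM to 56.4 CPM in PU.1 cKO cells. After LPS + IL-4, Spi1 was 66.4 ± 7.98 CPM (SD, n = 2) in control and 61.4 ± 3.56 CPM in PU.1 SpiB DKO cells, so that counts over the whole gene did not mark the deletion there. From read coverage of the floxed exon, the study describes it as fully removed after CD40L + IL-4, with a similarly high deletion after LPS + IL-4. All 10 B cell markers were detected in each library, and their summed level was 7710.4 to 40306 CPM. Fewer cells of a type and less RNA per cell cannot be told apart in such libraries.

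In control cells Ltb led or shared the lead before LPS, and Ccl22 led after it. Per length, on the deposited log2 RPKM scale, Ltb was the highest of the 10 genes in naive cells with a level of 10.35 (mean of 2 libraries), followed by Lta at 5.41. After CD40L + IL-4, Ltb at 6.29 and Ccl22 at 5.94 led, and the Ccl22 libraries, at 5.21 and 6.67, spanned those of Ltb, at 5.96 and 6.63. Lta at 3.74 and Ccl17 at 3.04 came next, and their libraries also overlapped. After LPS + IL-4, Ccl22 led at 8.11, and Ltb, Tnf and Lta followed at 4.97, 4.40 and 4.22. Tnf and Lta overlapped there, as did Il6 at 3.06 with Cxcl10 at 2.90, and Ccl3 at 2.09 overlapped with Il10 at 2.47 and with Ccl4 at 1.83, which lay apart from each other. In naive cells Ccl4, Tnf, Cxcl10 and Ccl3, at 2.19 to 0.94, were not separated by the spread of the 2 libraries. Values of the LPS + IL-4 stage were normalized apart from the others, so that only the order within a stage is read from them.

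**Figure D1:**
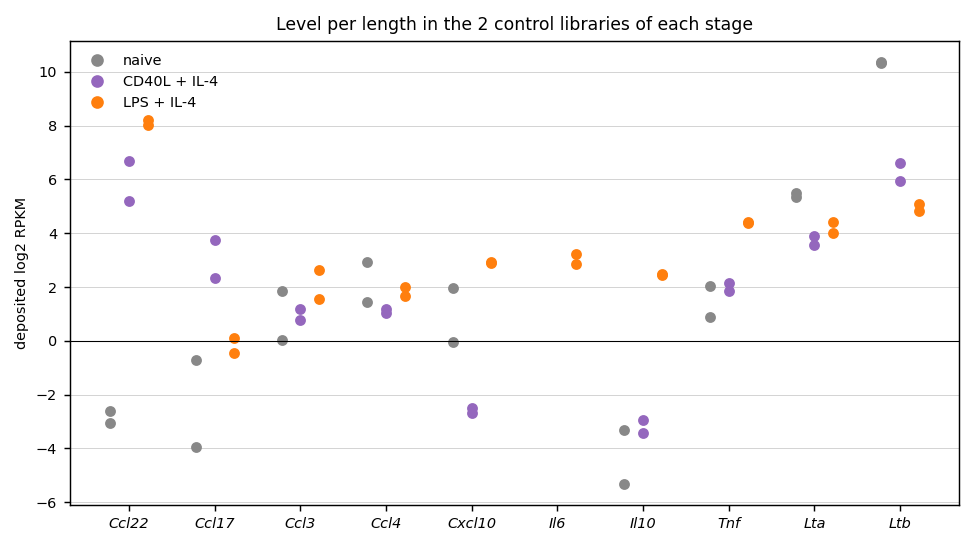
Level of each gene in control cells on the authors' log2 RPKM scale, 1 point per library (n = 2 per stage), with the 3 stages side by side. Ltb led in naive cells with a mean of 10.35, and Ccl22 led after LPS + IL-4 with a mean of 8.11.

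Ccl22 rose from near 0 with both stimuli. Control libraries held 0.210 and 0.142 CPM when naive, 73.4 and 182 CPM after CD40L + IL-4 and 461 and 556 CPM after LPS + IL-4. These were 5 counts in all in naive cells against 2574 and 41569, a ratio of 635 (95% counting interval 272 to 1960) for CD40L + IL-4 and of 2750 (1180 to 8470) for LPS + IL-4. The stages did not overlap, and LPS + IL-4 exceeded CD40L + IL-4 by 2.00 on the log2 scale (SE 0.49, adjusted p = 0.00259, edgeR). Ccl17 rose with CD40L + IL-4, from 0 and 0.213 CPM to 2.72 and 7.65 CPM (ratio of counts 42.7, 95% counting interval 14.2 to 211), and stood at 0.519 and 0.270 CPM after LPS + IL-4. It was lower after LPS + IL-4 than after CD40L + IL-4 (log2 fold -3.79). Ccl17 passed the filter on low counts through the CD40L + IL-4 libraries, where it was high, so that these stage differences are given with no test.

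The interleukins and Tnf rose with LPS + IL-4. Il10 had 0.07 and 0 CPM in naive control cells, 0.18 and 0.10 CPM after CD40L + IL-4 and 7.09 and 6.62 CPM after LPS + IL-4. Il6 had no count in any of the 8 naive libraries and 4 counts in the control libraries after CD40L + IL-4, but 704 counts, 7.74 and 9.45 CPM, after LPS + IL-4, which is at least 77.6-fold above naive with a floor of 3 counts over the group. Tnf was 2.45 and 5.83 CPM when naive, 6.06 and 7.86 CPM after CD40L + IL-4 and 34.4 and 33.1 CPM after LPS + IL-4. For Tnf the last stage lay above both others (log2 fold 2.90 against naive, adjusted p = 4.28e-07, and 2.29 against CD40L + IL-4, adjusted p = 2.06e-05).

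The lymphotoxin genes went the other way. Ltb fell from 1542 and 1444 CPM in naive control cells to 74.5 and 111 CPM after CD40L + IL-4 and 37.4 and 30.1 CPM after LPS + IL-4, a log2 fold of -4.14 (adjusted p = 1.47e-09) and -5.60 (adjusted p = 2.59e-11). Lta fell from 50.8 and 58.5 CPM to 17.5 and 22.1 CPM (log2 fold -1.60, adjusted p = 5.39e-05) and to 22.1 and 28.8 CPM (-1.22, adjusted p = 0.000306). Cxcl10 was 0.84 and 3.70 CPM in naive cells, 0.176 and 0.210 CPM after CD40L + IL-4 and 7.87 and 7.58 CPM after LPS + IL-4, the highest stage, although its rise over naive cells was lost without naive replicate 1 (adjusted p = 0.234). The rise of Ccl3 from 2.31 and 0.64 CPM to 2.20 and 4.28 CPM overlapped between stages and was lost when the replicate number was a block (log2 fold 0.64, adjusted p = 0.315).

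A gene was called changed at an adjusted p under 0.15 over all genes tested, and a fold over 1.5. By that rule, which follows the study's methods, 6 of the 10 genes were called between naive and CD40L + IL-4 control cells, Il6 among them on 4 counts against 0 and lost without either naive library, where 48.8% of all tested genes were called. The count was 8 of 10 between naive and LPS + IL-4, against 63.9% of all genes, and 7 of 10 between the stimulations, against 41.2%. With so many genes called, nothing is read from the member counts here. The CD40L + IL-4 libraries are in a count table of their own, and the naive and LPS + IL-4 libraries share another. In comparisons with CD40L + IL-4, stage and count table thus cannot be told apart. Any difference in sequencing between stages cannot be told apart from stage either. Over the 24 libraries genes whose log2 CPM followed Ccl22 most closely included Mrps9, Fxr1, Snrnp70 and Pnp2, with Pearson r of 0.957 to 0.968, a description over libraries that share their stages.

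The sequences before the start sites of the chemokines and of Tnf are shown as the context of members described below, and no result rests on their letters. RefSeq held promoters (GRCm38.p6) for 8 of the 10 genes, all but Il10 and Ccl4, and the 250 bases before each start were searched on both strands. The 4 motifs were GAGGAA, a core shared by PU.1 and SpiB, the ETS-IRF composite GGAANNGAAA, the STAT6 motif TTCNNNNGAA and the NF-kB motif GGGNNNNNCC, and GAGGAA can overlap the composite. The printed stretches were chr8:94745434-94745589 (plus strand) for Ccl22, chr8:94810203-94810452 (plus strand) for Ccl17, chr5:92348890-92349139 (minus strand) for Cxcl10 and chr17:35202008-35202257 (minus strand) for Tnf. The Ccl17 window lies inside the RefSeq span of that gene, which begins at 94809380 upstream of the start used here. They read 5′ to 3′, with matches on either strand in capitals.
Ccl22: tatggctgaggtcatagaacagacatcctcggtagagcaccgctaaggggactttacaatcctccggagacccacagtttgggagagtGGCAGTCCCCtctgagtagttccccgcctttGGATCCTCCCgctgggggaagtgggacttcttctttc
Ccl17: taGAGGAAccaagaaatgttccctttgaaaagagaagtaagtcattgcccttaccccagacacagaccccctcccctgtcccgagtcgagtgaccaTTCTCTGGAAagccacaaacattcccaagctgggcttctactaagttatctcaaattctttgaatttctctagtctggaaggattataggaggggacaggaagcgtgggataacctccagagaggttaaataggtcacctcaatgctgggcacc
Cxcl10: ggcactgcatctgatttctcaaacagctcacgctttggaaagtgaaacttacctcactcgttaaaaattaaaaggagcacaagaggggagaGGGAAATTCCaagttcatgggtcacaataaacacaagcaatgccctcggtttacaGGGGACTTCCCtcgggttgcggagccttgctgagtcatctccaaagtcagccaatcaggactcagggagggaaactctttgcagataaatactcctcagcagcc
Tnf: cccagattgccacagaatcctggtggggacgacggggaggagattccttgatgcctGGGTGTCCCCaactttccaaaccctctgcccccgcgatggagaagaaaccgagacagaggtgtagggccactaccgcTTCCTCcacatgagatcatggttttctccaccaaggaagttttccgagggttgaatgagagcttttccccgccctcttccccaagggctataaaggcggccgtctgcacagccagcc
In Ccl22 the capitals are 2 NF-kB matches, and in Cxcl10 NF-kB matches, some overlapping. In Ccl17 they are GAGGAA, 248 bases before the start, and the STAT6 match. In Tnf they are the NF-kB match and, as GAGGAA on the opposite strand, the run 117 to 112 bases before the start. GAGGAA was in 4 of the 8 promoters (Ccl17, Ccl3, Tnf and Ltb) and in 23.3% of all 32851 promoters, the NF-kB motif in 6 of 8 and in 45.8%, the STAT6 motif in 2 of 8 (Ccl17 and Lta) and in 5.85%, and the composite in 0 of 8 and in 2.3%. A match is a description of letters and not a bound site.

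**Figure D2:**
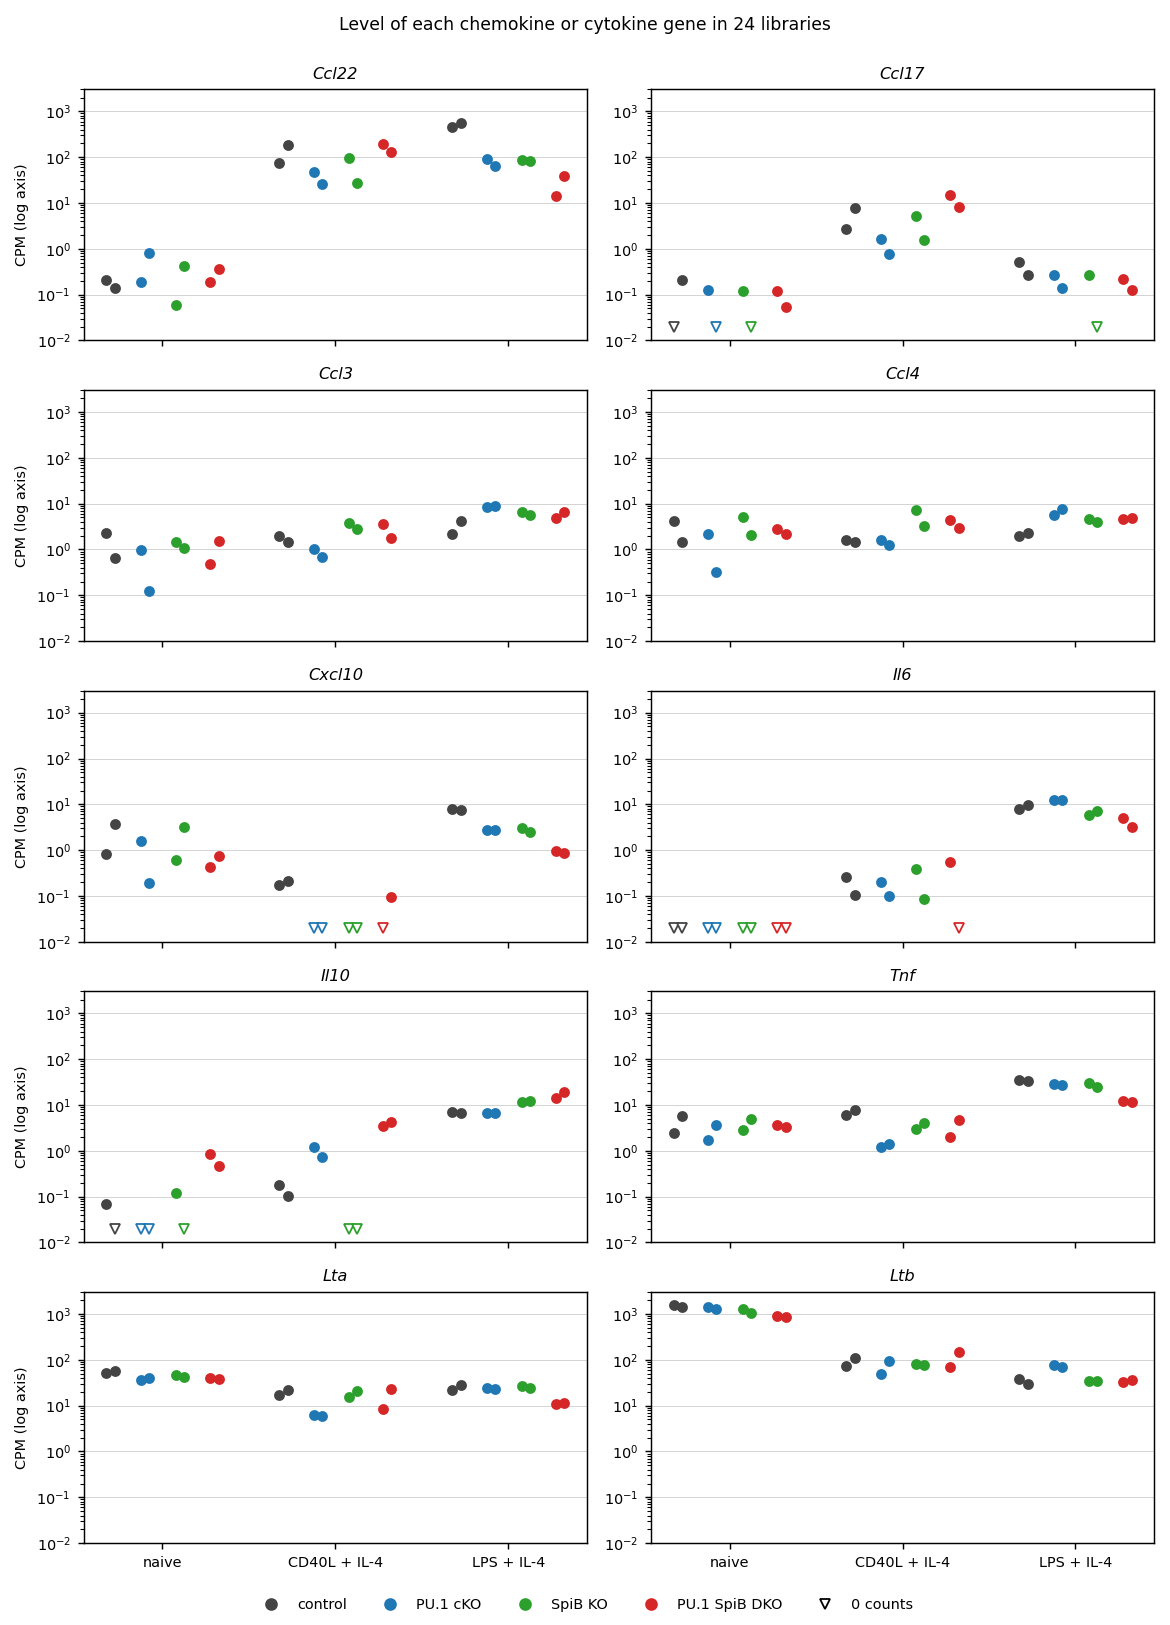
Level of each of the 10 genes in every library, as TMM-scaled CPM on a log axis, with the 4 genotypes in each of the 3 stages and 1 point per library (n = 2 per group), open triangles marking libraries with 0 counts. After LPS + IL-4 the Ccl22 points of all 3 mutant genotypes, 14.3 to 90.3 CPM, sit below the control points at 461 and 556 CPM.

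After LPS + IL-4, Ccl22 was lower in each mutant genotype. It measured 461 and 556 CPM for control, 90.3 and 65.8 CPM for PU.1 cKO, 85.5 and 83.9 CPM for SpiB KO and 14.3 and 39.3 CPM for PU.1 SpiB DKO cells. Neither single mutant overlapped with control or with the double mutant, whereas the 2 single mutants overlapped with each other. Against control Ccl22 was 6.51-fold lower in PU.1 cKO (log2 fold -2.70, SE 0.36, adjusted p = 0.00133, edgeR) and 6.00-fold lower in SpiB KO (-2.59, SE 0.36, adjusted p = 0.00702), both also lower without any 1 library and in each other setting tried. These comparisons use the control libraries of the contrast that chose the gene. In PU.1 SpiB DKO cells it was 19.1-fold lower than control (-4.26, SE 0.39), and it differed from PU.1 cKO by -1.55 and from SpiB KO by -1.67 on the log2 scale, all 3 values being descriptions. The 2 double mutant libraries differed most in ratio, at 26.8 ± 17.7 CPM (SD, n = 2). Ccl17 stayed at 0 to 0.519 CPM in the 8 libraries of this stage and was not tested.

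Cxcl10, whose product attracts CXCR3-bearing T cells, had a like order of genotypes. It measured 7.87 and 7.58 CPM for control, 2.74 and 2.69 CPM for PU.1 cKO, 3.07 and 2.53 CPM for SpiB KO and 0.946 and 0.859 CPM for PU.1 SpiB DKO cells. The double mutant lay below both single mutants and these below control, with replicates close together. Against control Cxcl10 fell in PU.1 cKO (log2 fold -1.50, SE 0.18, adjusted p = 0.000704) and in SpiB KO (-1.45, SE 0.18, adjusted p = 0.00474), also without any 1 library and in each other setting. PU.1 SpiB DKO cells were 8.50-fold below control (-3.09, SE 0.21, a description). They were also below PU.1 cKO (-1.58, adjusted p = 0.00205) and below SpiB KO (-1.64, adjusted p = 0.00088), in tests that share the double mutant libraries with that contrast. The interaction, that is the double mutant's change less the sum of the single ones, was -0.14 for Cxcl10 and 1.03 for Ccl22, given with no test.

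Ccl3 and Ccl4, which lie side by side on chromosome 11 and whose RefSeq spans overlap, were higher in PU.1 cKO cells. Ccl4 measured 1.95 and 2.27 CPM for control, 5.78 and 7.77 CPM for PU.1 cKO, 4.66 and 3.91 CPM for SpiB KO and 4.58 and 4.84 CPM for PU.1 SpiB DKO cells. All 6 mutant libraries were above both control libraries. Ccl4 rose in PU.1 cKO (log2 fold 1.66, SE 0.21, adjusted p = 0.000913) and in SpiB KO (1.02, SE 0.21, adjusted p = 0.0444). The SpiB KO call was lost without control replicate 2 (adjusted p = 0.176) or SpiB KO replicate 1 (adjusted p = 0.253). Ccl3 measured 2.20 and 4.28 CPM in control and rose to 8.42 and 8.99 CPM in PU.1 cKO (1.37, SE 0.27, adjusted p = 0.00953), while SpiB KO had 6.61 and 5.60 CPM and PU.1 SpiB DKO cells 4.93 and 6.46 CPM. The double mutant was below PU.1 cKO for Ccl3 (-0.61, adjusted p = 0.124), a call lost without either PU.1 cKO library or its own replicate 1 (adjusted p = 0.219 to 0.435), and differed from control by 0.75 for Ccl3 and 1.14 for Ccl4 as a description. The test of the double mutant against PU.1 cKO shares its libraries with the contrast that chose the members. The strand setting of the counting is not given in the sources used here, so reads of the overlap could count for either gene.

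Il6 and Il10 moved apart. Il6, a growth and differentiation factor for activated lymphocytes, measured 7.74 and 9.45 CPM for control, 12.3 and 12.7 CPM for PU.1 cKO, 5.98 and 7.19 CPM for SpiB KO and 4.93 and 3.25 CPM for PU.1 SpiB DKO cells. The libraries of the 4 genotypes did not overlap, with PU.1 cKO highest and the double mutant lowest. In PU.1 cKO the log2 fold of 0.53 passed the test (adjusted p = 0.132) but not the fold limit, and PU.1 SpiB DKO was below PU.1 cKO (-1.61, SE 0.21, adjusted p = 0.00179). The double mutant was also below SpiB KO (-0.67, adjusted p = 0.0582), a call lost without SpiB KO replicate 2 (adjusted p = 0.232) or without its own replicate 2 (adjusted p = 0.24). Il10, the inhibitory interleukin, measured 7.09 and 6.62 CPM for control, 6.80 in both PU.1 cKO libraries, 11.7 and 12.0 CPM for SpiB KO and 14 and 19.6 CPM for PU.1 SpiB DKO cells. It was higher in SpiB KO (0.79, SE 0.17, adjusted p = 0.0479), a call lost without control replicate 2 or without either SpiB KO library (adjusted p = 0.188 to 0.282), and higher in PU.1 SpiB DKO than in PU.1 cKO (1.30, adjusted p = 0.00164). In the double mutant the log2 folds against control were -1.07 for Il6 and 1.30 for Il10, as a description. The tests of the double mutant against the single mutants share its libraries with that contrast, which chose the members. The 10 plasma cell markers summed to 1319 and 1446 CPM for control, 2237 and 2484 CPM for PU.1 cKO, 1430 and 1539 CPM for SpiB KO and 3232 and 3162 CPM for PU.1 SpiB DKO cells, and their part in the results of this stage was not tested. The 13 T cell markers summed to 25.1 and 22.6 CPM in control and 157 and 161 CPM in the double mutant, mostly as Lck, Zap70 and Cd28, while Cd3d, Cd3e and Cd3g were at most 0.133 CPM in any library.

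The TNF family ligands split into a group lowered in PU.1 SpiB DKO cells and Ltb. Tnf, the proinflammatory ligand, measured 34.4 and 33.1 CPM for control, 28.6 and 27.3 CPM for PU.1 cKO, 30.6 and 24.3 CPM for SpiB KO and 12.2 and 11.8 CPM for PU.1 SpiB DKO cells. Lta measured 22.1 and 28.8 CPM for control, 24.7 and 23.0 CPM for PU.1 cKO, 27.2 and 24.2 CPM for SpiB KO and 11.1 and 11.3 CPM for PU.1 SpiB DKO cells. For both genes the double mutant lay below every other library, and neither single mutant was called against control. Tnf was lower in PU.1 SpiB DKO than in PU.1 cKO (-1.23, adjusted p = 0.000496) and in SpiB KO (-1.20, adjusted p = 0.000238), and Lta likewise (-1.09, adjusted p = 0.0016, and -1.21, adjusted p = 0.000486). These tests, and that of Ltb in the double mutant below, share the double mutant libraries with the contrast that chose the members. Ltb, the membrane anchor of the lymphotoxin heterotrimer, was 37.4 and 30.1 CPM for control, 76.2 and 69.3 CPM for PU.1 cKO, 34.3 and 34.6 CPM for SpiB KO and 33.5 and 36.4 CPM for PU.1 SpiB DKO cells. In the double mutant the log2 folds against control were -1.49 for Tnf, -1.19 for Lta and 0.05 for Ltb, as a description. For Ltb only the PU.1 cKO libraries stood out, above all others (log2 fold 1.11, SE 0.12, adjusted p = 0.00034, and -1.06 between the double mutant and PU.1 cKO, adjusted p = 0.000881). Ltb, Tnf and Lta lie within one cluster on chromosome 17, with 3.06 kb between the ends of Ltb and Tnf and 1.16 kb between Tnf and Lta.

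In all, 9 of the 10 genes could be tested after LPS + IL-4. Over all 9, the count called was 5 in PU.1 cKO against control, where 10.5% of all genes were called, and 4 in SpiB KO, against 3.19%. Without Ccl22, whose control libraries were used in choosing it, these counts were 4 and 3 of 8. With Ccl22 left aside, as the gene chosen on the double mutant, 7 of the other 8 were called against PU.1 cKO (12.6% of all genes) and 4 of 8 against SpiB KO (12.8%). In the contrast that chose the members, the double mutant against control, and in the interaction, 8 and 4 of the 9 were past the same limits, beside 20.2% and 1.48% of all genes. Nothing is read from these 2 counts, since the members were picked with that contrast in view. Nor is anything read from the counts of the double mutant against PU.1 cKO and SpiB KO, which share its double mutant libraries. Over all 9, the count in SpiB KO against control was lower without SpiB KO replicate 1. The interaction count was lower without PU.1 cKO replicate 2 or SpiB KO replicate 1.

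**Figure D3:**
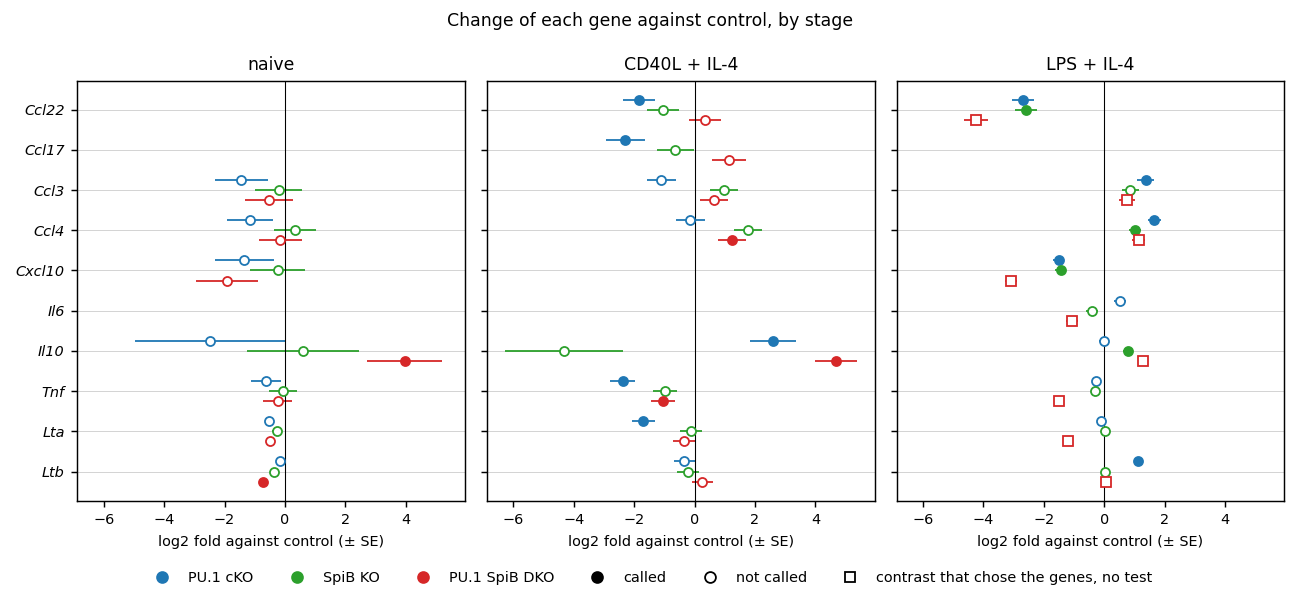
Log2 fold of each tested member against control for PU.1 cKO, SpiB KO and PU.1 SpiB DKO cells in each stage, with bars of 1 SE from the edgeR fit (n = 2 libraries per group). After LPS + IL-4 Ccl22 lies at -2.70, -2.59 and -4.26, while after CD40L + IL-4 it lies at -1.84, -1.06 and 0.34.

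After CD40L + IL-4 the chemokine pattern was another. Ccl22 measured 73.4 and 182 CPM for control, 47.1 and 25.5 CPM for PU.1 cKO, 94.7 and 28.0 CPM for SpiB KO and 193 and 131 CPM for PU.1 SpiB DKO cells. The PU.1 cKO libraries lay below both control libraries, and the double mutant overlapped with control. Ccl22 was lower in PU.1 cKO (log2 fold -1.84, SE 0.54, adjusted p = 0.062), but the call was lost without control replicate 2 (-1.04, adjusted p = 0.377) or without PU.1 cKO replicate 2 (-1.43, adjusted p = 0.351). In PU.1 SpiB DKO against control the log2 fold was 0.34 (SE 0.52, adjusted p = 0.706) and in SpiB KO it was -1.06 (adjusted p = 1), neither called. The double mutant was above PU.1 cKO (2.18, SE 0.54, adjusted p = 0.0822) and SpiB KO (1.40, adjusted p = 0.126, and 0.281 with DESeq2). The former call was lost without PU.1 cKO replicate 2 or the double mutant's replicate 1 (adjusted p = 0.383 and 0.204), and the latter without SpiB KO replicate 2 or either double mutant library (adjusted p = 0.175 to 0.343).

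Ccl17 followed Ccl22 in this stage. It measured 2.72 and 7.65 CPM for control, 1.60 and 0.79 CPM for PU.1 cKO, 5.13 and 1.56 CPM for SpiB KO and 14.7 and 8.10 CPM for PU.1 SpiB DKO cells. Both double mutant libraries were above all others. Ccl17 was lower in PU.1 cKO (log2 fold -2.29, SE 0.65, adjusted p = 0.0535), a call lost without control replicate 2 (adjusted p = 0.36) or PU.1 cKO replicate 2 (adjusted p = 0.419). It was higher in PU.1 SpiB DKO than in PU.1 cKO (3.44, SE 0.64, adjusted p = 0.0221) and in SpiB KO (1.78, adjusted p = 0.0846), calls lost without PU.1 cKO replicate 2 (adjusted p = 0.214) and without SpiB KO replicate 2 or the double mutant's replicate 1 (adjusted p = 0.261 and 0.272). Its log2 fold against control was 1.15 (SE 0.57, adjusted p = 0.213), which passed without control replicate 2 (2.06, adjusted p = 0.0982) or without either SpiB KO library (adjusted p = 0.144 and 0.138). The interaction passed the test for Ccl22 (3.24, SE 0.76, adjusted p = 0.135) and Ccl17 (4.07, SE 0.88, adjusted p = 0.115), the double mutant being higher than the single changes add up to. Neither passed without control replicate 2 (adjusted p = 0.45 and 0.435) or PU.1 cKO replicate 2 (0.326 and 0.322), nor did Ccl22 without PU.1 cKO replicate 1 (0.151), without the double mutant's replicate 2 (0.171) or with DESeq2 (0.173). Both genes lie on chromosome 8, 58 kb apart, with Cx3cl1 between them.

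1 gene of the dendritic cell list stood in nearly the same order as these chemokines over the libraries, while others of the list did not. Fscn1 (fascin), which was singled out from the dendritic cell list after its values were seen, measured 40.4 and 103 CPM for control, 34.2 and 14.9 CPM for PU.1 cKO, 70.8 and 29.1 CPM for SpiB KO and 161 and 115 CPM for PU.1 SpiB DKO cells. Ordered by level, the 8 libraries stood alike for Ccl22, Ccl17 and Fscn1 except that control replicate 2 and PU.1 SpiB DKO replicate 2 changed places. The ratio of Ccl22 to Fscn1 spanned 0.961 to 1.82, a 1.89-fold range, while Ccl22 itself spanned 7.56-fold. Fscn1 was lower in PU.1 cKO than in control (log2 fold -1.59, adjusted p = 0.0855) and higher in the double mutant than in PU.1 cKO (2.53, adjusted p = 0.0364). Summed over the 12 genes of the list, dendritic cell markers measured 167 and 294 CPM for control, 144 and 111 CPM for PU.1 cKO, 255 and 142 CPM for SpiB KO and 337 and 261 CPM for PU.1 SpiB DKO cells, and Clec10a was at 0 in all 8 libraries and Clec9a in 7 of them. Cst3 was 55.9 and 99.3 CPM in control and 131 and 110 CPM in the double mutant. Naaa instead measured 54.3 and 71.8 CPM in control against 21.4 and 16.3 CPM in the double mutant, and Zbtb46 2.90 and 3.88 CPM against 3.99 and 3.81 CPM. Of the 8 genes of the list that were tested, 1 was called higher and 1 lower in the double mutant (18.3% of all genes called), and 0 higher and 3 lower in PU.1 cKO (13.5%). The part of this list in the Ccl22 and Ccl17 results was not tested. After LPS + IL-4, Fscn1 was 0.286 to 1.03 CPM in every library and Clec9a and Clec10a were at 0 in all 8, while Ccl22 in control was 461 and 556 CPM.

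**Figure D4:**
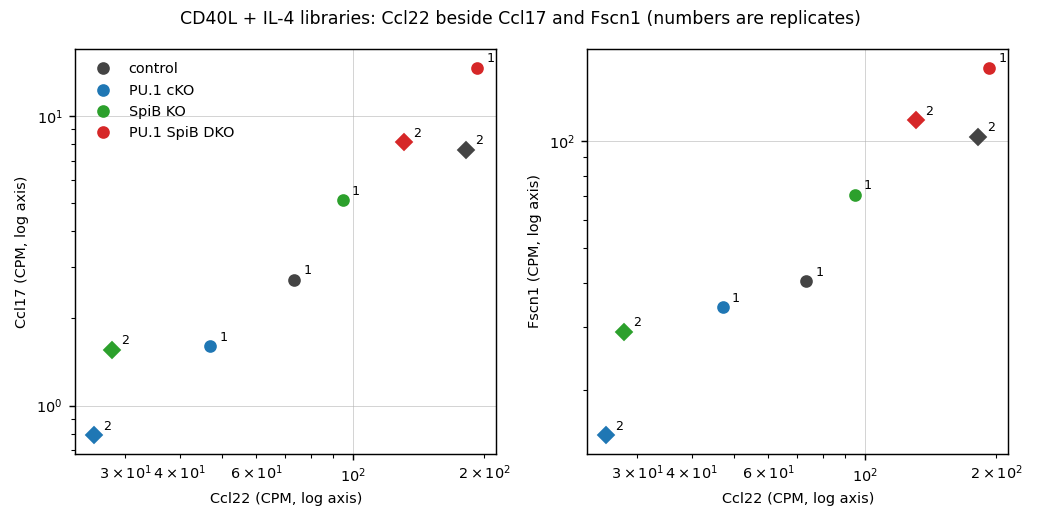
Ccl22, Ccl17 and Fscn1 in the 8 CD40L + IL-4 libraries, as TMM-scaled CPM on log axes, 1 point per library coloured by genotype and marked with its replicate number. The libraries run from 25.5 CPM of Ccl22 in PU.1 cKO replicate 2 to 193 CPM in PU.1 SpiB DKO replicate 1, and Ccl17 and Fscn1 rise along the same order but for 2 libraries.

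Ccl3 and Ccl4 were low after CD40L + IL-4. Ccl4 measured 1.58 and 1.47 CPM for control, 1.60 and 1.27 CPM for PU.1 cKO, 7.20 and 3.21 CPM for SpiB KO and 4.32 and 2.95 CPM for PU.1 SpiB DKO cells. Both genotypes without SpiB were above both with it, yet only the double mutant was called (log2 fold 1.24, SE 0.47, adjusted p = 0.11, and 0.196 with voom), the SpiB KO value being 1.76 (adjusted p = 0.523). The call was lost without either control library or the double mutant's replicate 1 (adjusted p = 0.239 to 0.32). Ccl3 measured 1.93 and 1.47 CPM for control, 1.0 and 0.69 CPM for PU.1 cKO, 3.84 and 2.86 CPM for SpiB KO and 3.56 and 1.81 CPM for PU.1 SpiB DKO cells, and was called in the double mutant against PU.1 cKO only (1.74, adjusted p = 0.115), a call lost without either PU.1 cKO library or the double mutant's replicate 1 (adjusted p = 0.215 to 0.51). Cxcl10, at 0 to 0.210 CPM, was not tested.

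Il10 was detected after CD40L + IL-4 mainly in cells without PU.1. It measured 0.18 and 0.10 CPM for control, 1.20 and 0.72 CPM for PU.1 cKO, 0 CPM in both SpiB KO libraries and 3.56 and 4.19 in PU.1 SpiB DKO cells. The PU.1-deficient libraries lay above the others, the double mutant highest, and the gene passed the filter on low counts only through these 2 genotypes. In counts this was 3 in control, 56 in PU.1 cKO and 77 in PU.1 SpiB DKO, a ratio to control of 5.52 (95% counting interval 1.79 to 27.6) and 27.2 (8.96 to 135). The log2 folds were 2.58 (SE 0.76) and 4.69 (SE 0.69), and since the filter admitted the gene through these groups they are given with no test. The double mutant was above PU.1 cKO by 2.11 on the log2 scale and had at least 28.2-fold the level of SpiB KO, both likewise given with no test. The summed level of the 10 plasma cell markers was 1836 and 2152 CPM for control, 3303 and 3680 CPM in PU.1 cKO and 4545 and 4679 CPM in PU.1 SpiB DKO cells, and its part in the Il10 values was not tested. Il6, at 0 to 0.540 CPM, was not tested in this stage.

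Tnf and Lta were lowered in PU.1 cKO cells after CD40L + IL-4. Tnf measured 6.06 and 7.86 CPM for control, 1.20 and 1.40 CPM for PU.1 cKO, 2.96 and 4.07 CPM for SpiB KO and 2.05 and 4.67 CPM for PU.1 SpiB DKO cells. All mutant libraries were below both control libraries. Lta measured 17.5 and 22.1 CPM for control, 6.42 and 5.89 CPM for PU.1 cKO, 15.4 and 20.7 CPM for SpiB KO and 8.31 and 22.8 CPM for PU.1 SpiB DKO cells, so that only PU.1 cKO stood apart and the double mutant libraries lay far apart. In PU.1 cKO, Tnf fell (log2 fold -2.38, SE 0.41, adjusted p = 0.00479) and so did Lta (-1.69, SE 0.37, adjusted p = 0.0178), both also without any 1 library. Tnf was called in the double mutant (-1.03, SE 0.40, adjusted p = 0.115) and not in SpiB KO (-0.98, adjusted p = 1), the former call being lost without either control library or the double mutant's replicate 1 (adjusted p = 0.205 to 0.414). Lta was called in the double mutant against PU.1 cKO (1.36, adjusted p = 0.12), a call lost on leaving out any 1 of 5 libraries, among them the double mutant's replicate 2 (0.43, adjusted p = 0.768). Ltb measured 74.5 and 111 CPM for control, 49.4 and 96.4 CPM for PU.1 cKO, 80.6 and 78.8 CPM for SpiB KO and 71.4 and 150 CPM for PU.1 SpiB DKO cells, with all genotypes overlapping and none called. The macrophage and monocyte list measured 46.8 and 62.3 CPM for control, 11.3 and 10.4 CPM for PU.1 cKO, 63.1 and 41.9 CPM for SpiB KO and 13.6 and 10.1 CPM for PU.1 SpiB DKO cells, with Csf1r, C1qa and Cd14 at 0 throughout, and its part in the Tnf result was not tested.

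After CD40L + IL-4, 8 members were tested. With Il10 left aside, as the gene admitted through the groups where it was high, the count called was 4 of 7 in PU.1 cKO against control (13.5% of all genes called) and 2 in PU.1 SpiB DKO (18.3%). It was 4 for the double mutant against PU.1 cKO (4.06%), 2 against SpiB KO (15.3%) and 2 for the interaction (1.17%). In SpiB KO against control 0 of 8 were called by edgeR, where 0.134% of all genes were, with 2 members at an unadjusted p under 0.05 (Ccl4 and Tnf) and 0 called by DESeq2 or voom. Over all 8 members the PU.1 cKO count was 2 without control replicate 2, and the count against PU.1 cKO was 0 without PU.1 cKO replicate 2.

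In naive cells the members were mostly low, and Ltb carried the clearest difference. Ltb measured 1542 and 1444 CPM for control, 1391 and 1282 CPM for PU.1 cKO, 1266 and 1064 CPM for SpiB KO and 926 and 855 CPM for PU.1 SpiB DKO cells. The double mutant lay below every other library, and each single mutant below control. Ltb fell in PU.1 SpiB DKO against control (log2 fold -0.74, SE 0.12, adjusted p = 0.00302), also without any 1 library and in each other setting, and against PU.1 cKO (-0.59, adjusted p = 0.014), where it fell short of the fold limit without PU.1 cKO replicate 1 or the double mutant's replicate 2 (-0.53 in both). In SpiB KO its log2 fold of -0.36 passed the test (adjusted p = 0.138) but not the fold limit. Lta measured 50.8 and 58.5 CPM for control, 35.6 and 39.9 CPM for PU.1 cKO, 47.5 and 42.5 CPM for SpiB KO and 39.8 and 37.7 CPM for PU.1 SpiB DKO cells, and its log2 folds of -0.53 in PU.1 cKO (adjusted p = 0.0458) and -0.50 in the double mutant (adjusted p = 0.0297) stayed within the fold limit. Tnf, at 1.72 to 5.83 CPM, overlapped between all genotypes.

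Il10 was detected in naive cells mainly in the double mutant. It measured 0.07 and 0 CPM for control, 0 CPM in both PU.1 cKO libraries, 0.12 and 0 CPM for SpiB KO and 0.86 and 0.47 CPM for PU.1 SpiB DKO cells, 23 counts against 1 in control (ratio 18.5, 95% counting interval 3 to 762). It passed the filter only through the double mutant, so that no test of it is given. In the same libraries the 11 plasmacytoid dendritic cell markers summed to 506 and 370 CPM in control and 3161 and 2881 CPM in PU.1 SpiB DKO cells, and the 13 T cell markers to 129 and 84.6 CPM and 707 and 694 CPM. Of the T cell list, Cd8a was 12.0 and 2.35 CPM in control and 266 and 233 CPM in the double mutant. Cd3d, Cd3e and Cd3g were at most 1.23 CPM in any naive library. The part of both lists in the Il10 values was not tested. In SpiB KO the plasmacytoid dendritic cell list measured 2649 and 2146 CPM, where Il10 had 0.12 and 0 CPM.

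The naive chemokines varied widely between the libraries of a genotype. Cxcl10 measured 0.84 and 3.70 CPM for control, 1.59 and 0.19 CPM for PU.1 cKO, 0.59 and 3.18 CPM for SpiB KO and 0.43 and 0.74 CPM for PU.1 SpiB DKO cells. Ccl3 ranged from 0.13 to 2.31 CPM and Ccl4 from 0.32 to 5.00 CPM over the 8 libraries, with PU.1 cKO replicate 2 lowest for both. The 10 NK cell markers summed to 153 and 71.8 CPM for control, 158 and 56.6 CPM for PU.1 cKO, 247 and 171 CPM for SpiB KO and 280 and 174 CPM for the double mutant, PU.1 cKO replicate 2 being lowest here too and none of the markers being at 0 in any library. Their part in these levels was not tested. Ccl22 and Ccl17, at most 0.821 and 0.213 CPM, were not tested. With Il10 left aside, 1 of the 6 other members tested was called in the double mutant against control (21.2% of all genes called) and 1 against PU.1 cKO (12.9%), Ltb each time. None was called by edgeR in PU.1 cKO against control (10.7%), SpiB KO against control (9.62%), the double mutant against SpiB KO (3.03%) or the interaction (0.936%). With Il10 left aside, these 4 had 1 (Lta), 1 (Ltb), 1 (Ltb) and 0 members at an unadjusted p under 0.05. Over all members tested, Il10 included, DESeq2 called 0 in each, and voom 0 except 1 for the double mutant against SpiB KO. Nothing is read from that 1 call, since the filter admitted Il10 through the double mutant.

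The effect of losing PU.1 differed between the 2 stimulations for 4 of the 10 genes, beside 3.09% of all genes. The PU.1 cKO change after LPS + IL-4 less that after CD40L + IL-4 was 2.05 for Tnf (SE 0.50, adjusted p = 0.0544), 1.55 for Lta (SE 0.38, adjusted p = 0.0589), 1.40 for Ltb (SE 0.39, adjusted p = 0.106) and -2.59 for Il10 (SE 0.74, adjusted p = 0.123). Thus Tnf and Lta were lowered in PU.1 cKO after CD40L + IL-4 and not called after LPS + IL-4, Ltb was called after LPS + IL-4, and Il10 was higher after CD40L + IL-4, a value that rests on 3 counts in control. None of the 4 kept its call with every library left out in turn, and Il10 lost its call in 8 of 12 such fits. The count was 0 without control CD40L + IL-4 replicate 2 or PU.1 cKO LPS + IL-4 replicate 1, and stimulus and sequencing table cannot be told apart here.

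Receptors of the members changed as well. Of 14 such genes, 11 were tested after LPS + IL-4, and 4 rose and 2 fell in PU.1 cKO cells (10.5% of all genes called) and 4 rose and 2 fell in the double mutant (20.2%). Il6ra, the IL-6 receptor chain, was 14.1 and 18.1 CPM in naive control and 3.57 and 3.41 CPM in naive PU.1 cKO cells (log2 fold -2.21, adjusted p = 0.000965), and it fell after LPS + IL-4 in PU.1 cKO (-1.80, adjusted p = 0.00172). Il10ra fell after LPS + IL-4 from 75.7 and 57.5 CPM to 29.1 and 25.3 CPM in PU.1 cKO (-1.29, adjusted p = 0.000344) and 31.9 and 28.8 CPM in PU.1 SpiB DKO cells (-1.13, adjusted p = 0.000296). Ccr4, the receptor of CCL22 and CCL17, went up in the double mutant, from 1.12 and 1.73 CPM to 5.06 and 6.27 CPM after LPS + IL-4 (1.93, adjusted p = 0.000385) and from 3.25 and 1.68 CPM to 9.06 and 13.4 CPM after CD40L + IL-4 (2.17, adjusted p = 0.00335). Cd40, which receives one of the stimuli, was lower in PU.1 cKO and in PU.1 SpiB DKO cells at all 3 stages, with log2 folds of -1.16 and -1.52 when naive, -2.17 and -1.96 after CD40L + IL-4 and -1.19 and -2.14 after LPS + IL-4 (adjusted p of 0.00148 or less).

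Other chemokines were few in these cells, with 4 to 6 of 29 listed genes tested at a stage. After CD40L + IL-4, 3 of 6 fell and 0 rose in PU.1 cKO cells, where 13.5% of all genes were called. Ccl5, another inflammatory chemokine, was among them, at 7.99 and 29.8 CPM in control against 6.01 and 3.47 CPM (log2 fold -2.08, adjusted p = 0.128), as was Cxcl16, at 3.95 and 14.9 CPM against 4.11 and 1.27 CPM (-2.03, adjusted p = 0.135). Control replicate 2 was the high library for both, as it was for Ccl22. In the double mutant after CD40L + IL-4, 2 of the 6 rose and 1 fell (18.3% of all genes called). Cx3cl1 rose from 1.05 and 2.62 CPM in control to 8.74 and 3.62 CPM (log2 fold 1.76, adjusted p = 0.145, edgeR). Xcl1 rose as well (3.39, adjusted p = 0.0144), and Ccl1 fell (-1.69, adjusted p = 0.101). After LPS + IL-4, Ccl5 fell in PU.1 cKO from 6.70 and 6.34 CPM to 3.94 and 3.61 CPM (-0.78, adjusted p = 0.0209) and further in the double mutant to 2.29 and 1.91 CPM (-1.63, adjusted p = 0.000258). Cx3cl1, the neighbour of Ccl22 and Ccl17, fell in PU.1 cKO from 6.87 and 4.64 CPM to 1.86 and 1.19 CPM (-1.86, adjusted p = 0.00819) and in the double mutant to 1.34 and 2.61 CPM (-1.54, adjusted p = 0.00929). Of the 5 chemokines tested there, 2 fell and 0 rose in PU.1 cKO (10.5% of all genes called), and in the double mutant 2 fell and 1 rose (20.2%), the latter being Ccl25 (0.72, adjusted p = 0.11).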

How the data were processed

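RNA from the sorted B cells was made into libraries with a TruSeq RNA kit. The authors aligned the reads to the mouse genome (GRCm38/mm10) with Subread and counted uniquely mapped reads over RefSeq exons with featureCounts. They deposited raw counts per gene in 2 tables, 1 for CD40L + IL-4 and 1 for naive and LPS + IL-4 cells together. They also deposited log2 RPKM values, quantile normalized with voom, made separately for LPS + IL-4. Tool versions and the strand setting are not given in the sources used here. The extract protocol in the labels describes CD40L + IL-4 cultures for every sample, so stages were taken from the sample names.

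Here the counts were tested with edgeR 4.0.16 (quasi-likelihood, TMM, R 4.3.3) within each stage over all 4 genotypes, and over 24 libraries for stages. Genes with at least 0.5 CPM in 2 libraries were tested (12500 naive, 12721 CD40L + IL-4, 12445 LPS + IL-4, 13684 over all), with Benjamini-Hochberg adjustment over all of them, and log2 folds are on edgeR's scale. Rows with no symbol (517) held 0.162% of counts. DESeq2 1.42.0 and limma 3.58.1 (voom) were alternatives. An interval on a ratio of counts covers counting error only. The study describes the 2 libraries of each group as duplicates, and with 2 against 2 an exact permutation test cannot go below 0.333, so p-values rest on the spread shared over genes and libraries. Same-numbered libraries deviated together after LPS + IL-4 (correlations 0.386 to 0.514) and weakly so in naive cells (0.0918 to 0.25), but not throughout after CD40L + IL-4 (-0.0702 to 0.266). The pairing was thus used as an alternative.

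The 10 genes, the marker and pathway lists and the tests were chosen with earlier results of these data known. Besides the members and the targeted genes, the text names up to 3 called genes per pathway list and stage by size of fold, and genes among the 5 most like Ccl22, of which 1 is not reported here. In the receptor and chemokine lists the genes named were picked from those by their roles. The 4 motifs were searched in RefSeq promoters, and part of the Ccl22 promoter, 94 bases in which a GENCODE transcript starts, is not printed.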

Additional observations from a re-analysis of the deposited data

Results flagged for a closer look

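After CD40L + IL-4 the change in the double mutant exceeded the sum of the single changes for 2 members, beside 1.17% of all genes, by a test of the difference itself. The interaction was 3.24 for Ccl22 (SE 0.76, adjusted p = 0.135, edgeR) and 4.07 for Ccl17 (SE 0.88, adjusted p = 0.115). Both calls depended on control replicate 2 and on PU.1 cKO replicate 2. They lay in the libraries where Fscn1 moved in nearly the same order.

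The effect of PU.1 loss differed between the 2 stimulations for 4 members, beside 3.09% of all genes. The change in PU.1 cKO cells after LPS + IL-4 less that after CD40L + IL-4 was -2.59 for Il10, 1.40 for Ltb, 2.05 for Tnf and 1.55 for Lta on the log2 scale, with adjusted p of 0.123, 0.106, 0.0544 and 0.0589. None of the 4 kept its call with every library left out in turn. The Il10 value rests on 3 counts in control after CD40L + IL-4. The 2 stimulations are in separate count tables.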

How the results depend on the processing

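With 2 libraries per group, 113 of 1374 recomputed values of 85 member folds lost their call, 6 gained one and 3 changed sign. The 1374 include values that could not lose a call. Folds given as descriptions after LPS + IL-4 were not scored for it, and 3 of their values moved by more than the spread of the libraries. Some other folds were not called to begin with. The sign changes were Ccl17 in SpiB KO after CD40L + IL-4 (0.28 without control replicate 2, 0.01 without SpiB KO replicate 2) and Ccl22 in PU.1 SpiB DKO (-0.17 without control replicate 1), none of them called. Leaving out each library in turn, these folds ranged from -1.71 to 0.28 and from -0.17 to 1.14. Members low in counts (Il10 when naive, Cxcl10, Il6 and Ccl17 outside their stimulus) could not be resolved at this depth. No cause of a changed count was tested beyond what each setting does by construction.

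Counts here include Il10 and Ccl22 throughout. At an adjusted p under 0.05 the members called went from 2 to 1 in naive PU.1 SpiB DKO against control. After CD40L + IL-4 they went from 5 to 2 in PU.1 cKO, from 3 to 1 in PU.1 SpiB DKO, from 5 to 1 against PU.1 cKO, from 3 to 1 against SpiB KO and from 2 to 0 for the interaction. The LPS + IL-4 interaction went from 4 to 2, and the PU.1 effect between stimulations from 4 to 0. With no filter on low counts they went from 0 to 3 in naive PU.1 cKO, from 0 to 1 in naive PU.1 SpiB DKO against SpiB KO, from 0 to 2 in SpiB KO after CD40L + IL-4, from 2 to 6 and from 4 to 7 for the interactions after CD40L + IL-4 and LPS + IL-4, and from 4 to 7 for the PU.1 effect between stimulations. For the naive double mutant against PU.1 cKO the count went from 2 to 1 with library totals alone, with voom and with a log2 RPKM above 0, and the last also gave 1 against control. Voom gave 1 in place of 0 for naive PU.1 SpiB DKO against SpiB KO.

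With the replicate number as a block, naive PU.1 cKO against control and naive PU.1 SpiB DKO against SpiB KO each had 1 member called in place of 0, and the paired fit moved no other count by over 1.5 times. Library totals alone shifted the median of all genes by 0.18 on the log2 scale between naive and stimulated control cells, less than any called stage change of a member.

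Leaving out each library in turn gave 0 to 2, 1 to 4 and 0 to 2 members called when naive for PU.1 cKO, PU.1 SpiB DKO and the latter against PU.1 cKO. After CD40L + IL-4 it gave 2 to 5 for PU.1 cKO, 0 to 1 for SpiB KO, 1 to 4 for PU.1 SpiB DKO, 0 to 6 and 1 to 3 for the latter against PU.1 cKO and SpiB KO, and 0 to 4 for the interaction. After LPS + IL-4 the ranges were 5 to 6, 2 to 4, 7 to 8, 7 to 8, 4 to 6 and 1 to 6 in that order. They were 5 to 8, 7 to 9 and 7 to 8 for the stages in control and 0 to 5 for the PU.1 effect between stimulations.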

Other observations

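Among 40 other cytokine genes, 12 were tested after LPS + IL-4, and 8 rose and 1 fell in PU.1 SpiB DKO cells, where 20.2% of all genes were called. Csf1, the macrophage growth factor, measured 4.19 and 4.52 CPM in control, 13.2 and 20.2 CPM in PU.1 cKO and 88.9 and 76.6 CPM in PU.1 SpiB DKO cells (log2 fold 4.24, SE 0.27, adjusted p = 8.29e-06). Spp1 (osteopontin) measured 1.30 and 1.39 CPM, 4.83 and 4.52 CPM, and 20.7 and 19.8 CPM in the same genotypes (3.90, SE 0.18, adjusted p = 1.79e-06). Csf1 was also higher in PU.1 SpiB DKO cells after CD40L + IL-4, at 162 and 75.5 CPM against 12.0 and 9.75 CPM in control (3.44, adjusted p = 0.00034). Ebi3, a subunit shared by IL-27 and IL-35, went down in naive PU.1 cKO cells, from 18.3 and 19.2 CPM to 4.08 and 2.78 CPM (-2.45, adjusted p = 0.000206).

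Of 14 other TNF family ligands, 6 were tested after LPS + IL-4, and 4 rose and 0 fell in PU.1 cKO cells (10.5% of all genes called), and 4 rose and 1 fell in the double mutant (20.2%). Tnfsf11 (RANKL) measured 3.89 and 4.75 CPM in control and 9.43 and 10.9 CPM in PU.1 cKO cells (log2 fold 1.22, adjusted p = 0.002), and Tnfsf8 (CD30 ligand) 0.951 and 0.468 CPM against 1.96 and 2.41 CPM (1.72, adjusted p = 0.0131).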
